A study of Mus musculus with 28 samples.

Results

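The mitochondrial chromosome of the mouse carries genes for proteins of the respiratory chain, and 10 of them are described here across the groups of the study: *mt-Nd1*, *mt-Nd2*, *mt-Nd4*, *mt-Nd5*, *mt-Nd6*, *mt-Co1*, *mt-Co2*, *mt-Co3*, *mt-Atp6* and *mt-Cytb*. They were chosen by name, by the symbol each gene carries in the count table, and make up 10 of the 48587 genes in the table and 10 of the 13 protein genes that GENCODE M21 places on the mitochondrial chromosome. Reads were counted on 7 of them in every library. *mt-Co2* had none, *mt-Atp6* and *mt-Co3* had 1 read each in 1 library, and these 3 genes could not be compared between groups.

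The respiratory chain sits in the inner mitochondrial membrane and passes electrons from NADH and succinate to oxygen, while the proton gradient it builds drives ATP synthase. Its complexes I, III and IV and ATP synthase are mosaics of subunits encoded in the nucleus and subunits encoded on the mitochondrial chromosome, whereas complex II is encoded in the nucleus alone. The mitochondrial genes are transcribed inside the organelle as long polycistronic RNAs, which are cut mostly at the tRNAs between the genes. Most of the mRNAs are then polyadenylated, so that an RNA library primed on poly(A) tails also holds those.

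RNA came from hippocampal microglia, the resident macrophages of the brain, sorted as viable CD11b+CD45low cells after exclusion of lymphocytes, Ly6C+ and Ly6G+ cells. Each library came from 1 mouse. The 28 male mice, 16 weeks of age, were heterozygous 5xFAD mice or non-transgenic wild-type (WT) littermates on a C57BL/6J background. 5xFAD mice express human APP and PS1 with familial Alzheimer's disease mutations under the neuron-specific Thy-1 promoter, so the transgenes are not driven in microglia themselves. Mice were kept specific pathogen-free (SPF; 5 WT and 3 5xFAD), were kept SPF and given vancomycin, cefoxitin, gentamicin and metronidazol (ABX) in the drinking water for 8 weeks (5 WT and 6 5xFAD), or were germ-free (GF; 4 WT and 5 5xFAD). GF mice came from another facility, and GF 5xFAD mice had been generated by embryo transfer. The effect of housing therefore cannot be told apart from that of the facility.

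The sample descriptions number the libraries in 3 styles. The first style covers all WT mice kept under SPF conditions or ABX, the second the SPF 5xFAD mice plus FAD_ABX_1151, and the third every GF mouse and the remaining 5 ABX 5xFAD mice. Genotype under SPF or ABX, and GF against SPF housing, therefore cannot be told apart from numbering style. GF 5xFAD against GF WT, ABX against SPF in WT mice, and ABX against GF 5xFAD mice without FAD_ABX_1151 each stay within 1 style. The description of mouse FAD_GF_201 names it WT, against its title and genotype, and it was used as GF 5xFAD. Libraries held 14441610 to 29977395 counted reads. Levels are given as CPM, counts scaled to a common library total, which for genes is the total adjusted by TMM and for sums of markers and Malat1 the plain total. The microglia markers (Cx3cr1, P2ry12, Tmem119 and 5 others) summed to 41528 to 61154 CPM in each library, and all 8 were detected in each group. Neutrophil markers, which the Ly6G gate should remove, summed to 61.1 to 263 CPM in the SPF 5xFAD mice and 144 CPM in FAD_ABX_1151, against at most 0.294 CPM in the other 24 libraries. All 7 markers were detected in SPF 5xFAD mice, and S100a8 and Ly6g, which define these cells, had no read in SPF WT, GF WT, ABX WT or GF 5xFAD mice. This contrast follows the second numbering style exactly, and the 4 libraries of that style also held 0.226 to 0.322 percent of their reads on the 10 genes, against 0.0847 to 0.243 percent in the others. The part of neutrophil RNA in the values below was not tested.

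The genes differ in how much of their sequence is their own. The reads were single reads of 50 bases, and parts of the mitochondrial chromosome have near-identical nuclear copies, on which a read of that length has 2 equally good places. Each 50-base window of the members was searched in all other annotated transcripts of GENCODE M21. All 635 windows of *mt-Co2*, the second subunit of cytochrome c oxidase (ENSMUSG00000064354.1, chrM:7013-7696), recurred in pseudogenes. For *mt-Atp6*, the membrane subunit of ATP synthase next to its rotor (ENSMUSG00000064357.1, chrM:7927-8607), and *mt-Co3*, the third subunit of cytochrome c oxidase (ENSMUSG00000064358.1, chrM:8607-9390), 99.5 and 99.9 percent of windows recurred. Their copies *Gm28661*, *Gm10925* and *Gm28437* lie side by side with copies of *mt-Co1*, *mt-Nd3*, *mt-Nd4l* and *mt-Nd4* between positions 24611535 and 24616197 of chromosome 1 (GRCm38), and a further set lies on chromosome 2. The first 60 bases of *mt-Co2* (chrM:7013-7072, plus strand) and of its copy (chr1:24615506-24615565, minus strand) are shown because a read from this stretch has no single best place. Capitals mark bases that are the same at the same position, which is every one of them.

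mt-Co2 start: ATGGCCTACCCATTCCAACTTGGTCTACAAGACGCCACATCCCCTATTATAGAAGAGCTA
Gm28661 start: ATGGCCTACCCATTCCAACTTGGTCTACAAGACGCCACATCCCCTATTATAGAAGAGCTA

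The 0 reads of *mt-Co2* among 565815621 counted reads would allow up to 0.00530 CPM by counting error alone, but since none of its windows is its own, they were not read as a level of its RNA. The copies held few reads as well, at most 1 in any library for *Gm28661* and *Gm10925* and at most 3 for *Gm28437*.

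**Figure D1:**
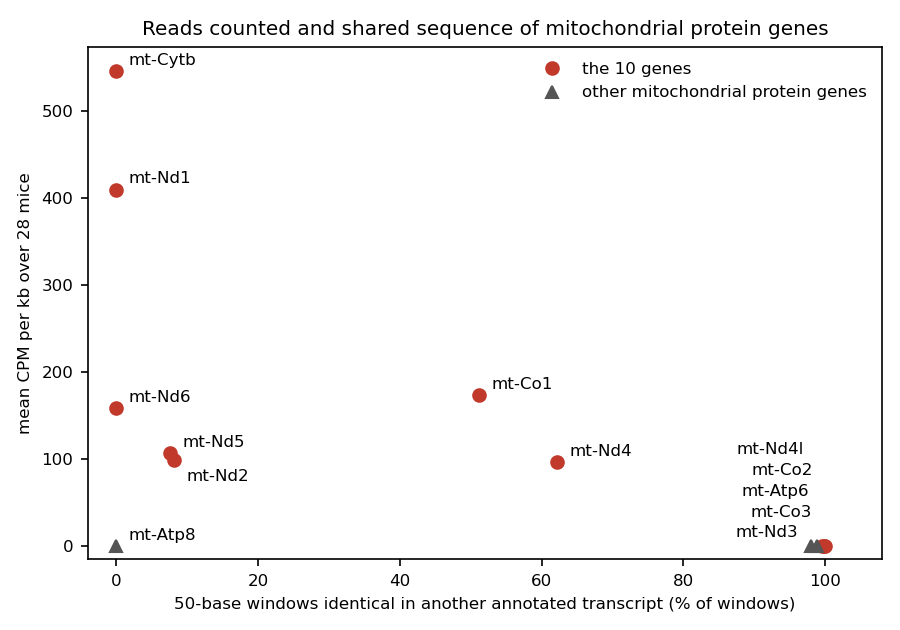
Mean level in CPM per kb over 28 mice (vertical axis) against the share of 50-base windows that are identical in another annotated transcript (horizontal axis, percent) for the 13 mitochondrial protein genes. Circles are the 10 genes described here and triangles the other 3. The genes with 98.0 percent or more of their windows shared lie at or near 0, while *mt-Atp8* is at 0 without any shared window.

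*mt-Co1* and *mt-Nd4* share part of their windows with other transcripts, and the effect of this on their counts was not tested. Of the windows of *mt-Co1*, the catalytic subunit of cytochrome c oxidase (ENSMUSG00000064351.1, chrM:5328-6872), 51.1 percent recurred in other transcripts, and for *mt-Nd4*, a proton-pumping subunit of complex I (ENSMUSG00000064363.1, chrM:10167-11544), 62.2 percent did. The stretch of *mt-Co1* shown (chrM:6374-6433, plus strand) is where its windows that recur in the copy *Gm29216* begin. Capitals mark the bases covered by these windows. Lower-case bases can still lie within that copy, and windows shared with another copy, *Gm13340*, were not marked. Which reads of this stretch were counted was not tested.

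mt-Co1 boundary: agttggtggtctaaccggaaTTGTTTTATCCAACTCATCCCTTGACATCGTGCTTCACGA

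The share was 8.19 percent for *mt-Nd2* (ENSMUSG00000064345.1, chrM:3914-4951) and 7.61 percent for *mt-Nd5* (ENSMUSG00000064367.1, chrM:11742-13565), also proton-pumping subunits of complex I. No window recurred for *mt-Nd1* (ENSMUSG00000064341.1, chrM:2751-3707), which forms part of the quinone-binding site of complex I, for *mt-Nd6* (ENSMUSG00000064368.1, chrM:13552-14070), a further membrane subunit of complex I, or for *mt-Cytb* (ENSMUSG00000064370.1, chrM:14145-15288), which carries the quinone-binding sites of complex III. Since only annotated transcripts were searched, copies elsewhere in the genome were not seen. *mt-Atp8*, outside the 10 genes, had 0 reads in all 28 libraries with no shared window among annotated transcripts.

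The annotation ends of the genes show features of mitochondrial RNA. *mt-Nd6* is the only one of the 10 on the minus strand, and its end overlaps the end of *mt-Nd5* by 14 bases. The last 40 bases of each gene (chrM:13526-13565, plus strand, and chrM:13552-13591, minus strand) are shown because the libraries do not keep strand, and reads from this overlap cannot be given to either gene. Reads of *mt-Nd6* can likewise not be told apart from antisense RNA of the opposite strand. Capitals mark the shared bases, which are reverse complements of each other.

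mt-Nd5 end: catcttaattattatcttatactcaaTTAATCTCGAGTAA
mt-Nd6 end: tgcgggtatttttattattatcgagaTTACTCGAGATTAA

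*mt-Nd4*, *mt-Co3* and *mt-Cytb* stop 1 base into a codon, with a T that the poly(A) tail completes to a stop codon. The last 30 bases of *mt-Cytb* (chrM:15259-15288) and, for comparison, of *mt-Nd1* (chrM:3678-3707), which ends with a full stop codon, are shown with the stop in capitals.

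mt-Cytb last bases: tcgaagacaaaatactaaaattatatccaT
mt-Nd1 last bases: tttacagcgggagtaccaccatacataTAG

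The 10 genes hold 34.1 to 39.9 percent G and C, against a median of 50.5 percent over the transcripts of other protein-coding genes. Base composition is therefore a property in which they stand at an edge of all genes, and adjusted values are given beside the comparisons whose calls or median they moved.

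Per kb of gene, over the 28 mice, *mt-Cytb* was the highest of the 10 with 546 ± 158 CPM per kb (SD, n = 28), followed by *mt-Nd1* with 409 ± 127. *mt-Co1* had 173 ± 64.9 and *mt-Nd6* 158 ± 55.5 CPM per kb, and *mt-Nd5*, *mt-Nd2* and *mt-Nd4* lay close together at 106 ± 36.4, 98.3 ± 34.4 and 96.3 ± 33.7. Counted against the windows that are not shared, *mt-Co1* came to 367 and *mt-Nd4* to 264 CPM per kb of such windows, beside 570.1 for *mt-Cytb* and 431 for *mt-Nd1*, so that the order of the lower genes depends on how shared sequence is treated. All these are small shares: the 10 genes together took 0.0847 to 0.322 percent of the reads of a library.

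The 7 counted genes moved together across mice. Pearson's r between log2 CPM values of 2 members over the 28 mice ranged from 0.818, for *mt-Co1* and *mt-Nd2*, to 0.981, for *mt-Cytb* and *mt-Nd1*. The points share libraries and scaling, and 6 of the 7 genes, *mt-Nd6* aside, lie on the same strand, so the values are a description. Within the summed reads of the members, *mt-Cytb* took 35.1 ± 1.6 percent (SD, n = 28) and *mt-Nd1* 21.9 ± 0.96 percent. The share of *mt-Nd2* varied most between groups. It was 6.04 to 7.19 percent in SPF WT and 6.34 to 7.74 percent in ABX WT mice, and 4.43 to 5.84 percent in GF WT, GF 5xFAD and ABX 5xFAD mice together, without overlap. These are the first and, but for FAD_ABX_1151, the third numbering style, and the part of the style in this difference was not tested. SPF 5xFAD mice, at 4.84 to 6.12 percent, overlapped both ranges.

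In all 7 genes the mean level was highest in SPF 5xFAD and lowest in GF WT mice. *mt-Cytb*, the most abundant, had 715, 431, 528, 494 and 514 CPM in the 5 SPF WT mice, 357, 327, 450.1 and 342 CPM in the 4 GF WT mice, and 709, 681, 764, 620.0 and 499 CPM in the 5 ABX WT mice. In 5xFAD mice it had 1057, 751 and 772 CPM under SPF conditions, 787, 686, 743, 828 and 529.7 CPM in GF mice, and 362 CPM at the lowest, 678 at the median and 846 at the highest of the 6 ABX mice. GF WT mice thus lay below all GF 5xFAD and all ABX WT mice, and all SPF 5xFAD mice lay above all SPF WT mice, while the ABX WT and ABX 5xFAD mice overlapped. Ordered by group mean, *mt-Cytb* ran from SPF 5xFAD (860.0 ± 171 CPM; SD, n = 3) over GF 5xFAD (715 ± 116, n = 5), ABX WT (655 ± 101, n = 5), ABX 5xFAD (649 ± 179.9, n = 6) and SPF WT (536 ± 107, n = 5) to GF WT (369 ± 55.3, n = 4), and every neighbouring pair in that order overlapped. The other members kept their lowest mean in GF WT mice (SD, n = 4) and their highest in SPF 5xFAD mice (SD, n = 3). *mt-Nd1* went from 228 ± 37.8 to 576 ± 112 CPM, *mt-Nd5* from 105 ± 12.1 to 303 ± 71.9 CPM and *mt-Nd4* from 71.8 ± 9.67 to 194 ± 36.9 CPM. *mt-Nd2* and *mt-Nd6*, the lowest of the 7, went from 53.2 ± 12.8 to 145 ± 13.4 CPM and from 44.1 ± 7.12 to 121 ± 32.9 CPM, and *mt-Co1* from 152 ± 17.7 to 429.8 ± 137 CPM. For *mt-Nd1*, *mt-Nd4*, *mt-Nd5* and *mt-Nd6*, the SPF WT and GF WT mice at the end of the order did not overlap.

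**Figure D2:**
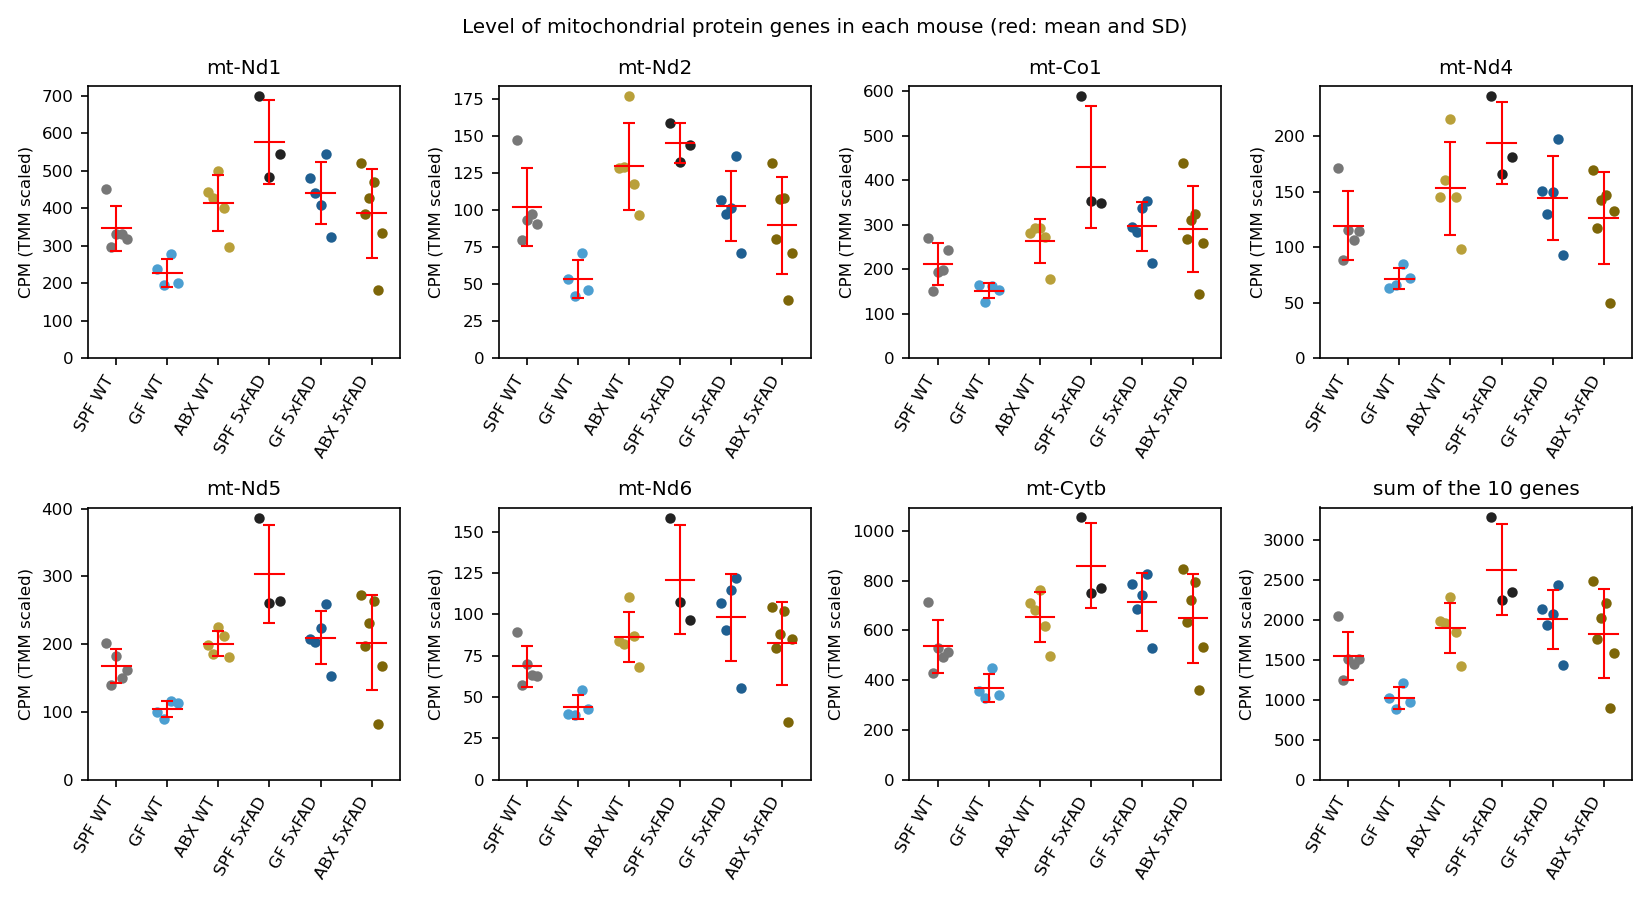
CPM (scaled by TMM) of the 7 counted genes and of the sum of the 10 genes in each of the 28 mice, by group; points are mice and red bars the mean and SD. By mean, GF WT mice are lowest and SPF 5xFAD mice highest in each panel, with mouse FAD_SPF_1144 above all others in 6 of the 7 single genes and mouse FAD_ABX_1460 far below the other ABX 5xFAD mice.

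Within groups, single mice lay apart in several of the 7 genes at once. Mouse FAD_SPF_1144 had the largest share of reads on the 10 genes of all libraries, at 0.322 percent, and FAD_ABX_1460 the smallest, at 0.0847 percent. FAD_GF_201, with 0.137 percent, lay below the other 4 GF 5xFAD mice (0.180 to 0.224 percent) and above the GF WT mice (0.0903 to 0.123 percent). Malat1, a long non-coding RNA kept in the nucleus, moved with these extremes: in 5 of the 6 groups the mouse with the smallest share on the 10 genes was the mouse with the lowest Malat1, and in 5 of 6 the same held for the highest. Malat1 was 436 CPM of the library total in FAD_ABX_1460 and 591 CPM in FAD_GF_201, the lowest values of their groups, and 2505 CPM in WT_ABX_911. Its part in the results was not tested. In these bulk samples, fewer mitochondria per cell, fewer transcripts per mitochondrion and a different mix of cells cannot be told apart.

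The first question was whether microglia of 5xFAD mice differ from those of WT littermates. Under GF conditions, where both groups share facility and numbering style, all 7 counted genes were higher in 5xFAD mice, by 1.92-fold to 2.23-fold. *mt-Nd6* had 107, 90.8, 115, 122 and 55.6 CPM in GF 5xFAD against 39.8, 39.3, 54.5 and 42.8 CPM in GF WT mice. All 5 transgenic mice lay above all 4 WT mice, the lowest of them, FAD_GF_201, by a narrow margin. Its log2 fold change was 1.15 ± 0.23 (SE; adjusted p = 0.000747, edgeR quasi-likelihood test), the largest of the 7, and the smallest was 0.94 ± 0.20 for *mt-Nd1* (adjusted p = 0.00145). The quinone-binding subunit *mt-Nd1* had 481, 442, 409, 544 and 322 CPM in GF 5xFAD and 238, 196, 278 and 201.2 CPM in GF WT mice, again without overlap. *mt-Cytb* rose by 0.95 ± 0.19 (adjusted p = 0.000474), which is 1.94-fold. The median log2 fold change of the 7 genes was 0.96, or 1.09 with GC content offsets, against -0.03 over all genes tested. The test called 9.43 percent of the 15298 genes tested higher in this comparison. In 6 of the 7 genes the groups did not overlap, against 9.14 percent of all genes, and by two-sided exact permutation these 6 had p = 0.00794 or 0.0159, where 0.00794 is the smallest that 5 against 4 mice allow (both 0.0489 after adjustment over 63 tests). The exception was *mt-Nd2*, with 70.9 CPM in FAD_GF_201 and 71.1 CPM in the highest WT mouse. Without FAD_GF_201 all 7 genes were free of overlap, against 11.8 percent of all genes, and all 7 remained called with any 1 mouse left out and under all other settings tried. Microglia markers, at 41528 to 51289 CPM in GF 5xFAD and 54437 to 58125 CPM in GF WT mice, separated the same groups. So did astrocyte markers (154.8 to 189 against 228.5 to 298 CPM) and endothelial markers (8.42 to 29.4 against 34.2 to 42.4 CPM), both lower in GF 5xFAD mice. The 50 most abundant genes took 26.5 to 28.6 percent of reads in GF 5xFAD and 22.6 to 24.9 percent in GF WT libraries, and TMM factors were 0.918 to 0.954 and 1.013 to 1.023. The part of these in the values was not tested.

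Under SPF conditions 5 of the 7 genes were called higher in 5xFAD mice. *mt-Co1*, which holds the oxygen-reducing centre of cytochrome c oxidase, had 588, 352 and 349 CPM in the SPF 5xFAD mice and 271, 151, 193, 199.3 and 243 CPM in the SPF WT mice. The groups were separate, with FAD_SPF_1144 far above the other transgenic mice. *mt-Nd1* had 700.3, 482 and 545 CPM in the SPF 5xFAD mice and 452, 298, 331, 332 and 318 CPM in the SPF WT mice, and *mt-Nd5* had 386, 260.1 and 264 CPM in the former. In both genes the lowest transgenic mouse lay above WT_SPF_912, the highest WT mouse. *mt-Co1* rose by 1.02 ± 0.23 on the log2 scale (adjusted p = 0.00557), or 2.03-fold. *mt-Nd5* rose by 0.86 ± 0.22 (adjusted p = 0.0177), *mt-Cytb* by 0.68 ± 0.20 (0.0389), *mt-Nd1* by 0.73 ± 0.21 (0.0441) and *mt-Nd6* by 0.82 ± 0.24 (0.0490). *mt-Nd4* and *mt-Nd2* did not pass, with differences of 0.70 ± 0.26 (adjusted p = 0.152) and 0.51 ± 0.25 (0.365). The test called 3.73 percent of all genes higher, and the median log2 fold change was 0.73 for the 7 genes, or 0.77 with GC content offsets, and -0.03 for all genes. In the same 5 genes the groups did not overlap, against 9.44 percent of all genes, with an exact permutation p of 0.0179, the smallest that 3 against 5 mice allow. Several marker sums separated the same groups. Markers of border-associated macrophages, which share much of the microglial surface, summed to 16.1 to 29.2 CPM in SPF 5xFAD and 3.48 to 8.15 CPM in SPF WT mice, and the 3 monocyte markers to 8.56 to 9.41 and 4.57 to 7.38 CPM. Microglia markers were lower in SPF 5xFAD mice (46244 to 49141 against 55340.4 to 59902 CPM), as were immediate early genes (989.6 to 1101 against 1207 to 1351 CPM) and TMM factors (0.979 to 1.007 against 1.013 to 1.057). Their part in the values was not tested. These calls rest on few mice. Without FAD_SPF_1144 none of the 7 genes was called, without WT_SPF_925 1 was, without WT_SPF_926, WT_SPF_928 or WT_SPF_936 2 were, and without FAD_SPF_1148 or FAD_ABX_1453 3 were. With library size as the only scaling 2 genes were called, and with limma's voomWithQualityWeights all 7. Over all genes, in either direction, these called 748 and 2154, against 699 in the main fit.

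Under ABX none of the 7 genes was called, while 14.4 percent of all genes were. Markers of border-associated macrophages moved with these groups: all 7 were detected in ABX 5xFAD mice, with sums of 33.99 to 253 CPM, against 3.803 to 5.904 CPM in ABX WT mice, where Cd163 and Lyve1 were at 0. Malat1 was lower in ABX 5xFAD mice, with a log2 fold change of -0.999 ± 0.189 (adjusted p = 0.00040) and no overlap. Monocyte markers were higher (9.20 to 50.8 against 1.43 to 8.54 CPM) and microglia markers lower (46281 to 53164 against 53935 to 61154 CPM) in ABX 5xFAD mice. The part of these in the values was not tested. *mt-Nd5*, for example, had 199.5, 186, 226, 212 and 181.3 CPM in ABX WT mice and 82.7 CPM at the lowest, 214 at the median and 273 at the highest of the ABX 5xFAD mice. The transgenic mice spread over a wider range on both sides of the WT mice. The log2 fold changes ran from -0.53 ± 0.21 for *mt-Nd2* (adjusted p = 0.0987) to 0.14 ± 0.20 for *mt-Co1* (adjusted p = 0.698), with a median of -0.07. Only *mt-Nd2* had an unadjusted p under 0.05, as did 27.7 percent of all genes, and DESeq2 and voomWithQualityWeights called none. *mt-Nd2*, which pumps protons in complex I, had 128, 129, 177, 118 and 96.7 CPM in ABX WT and 39.7, 94.0 and 132 CPM at the lowest, median and highest of ABX 5xFAD mice. It was called lower when FAD_ABX_1151 was left out (adjusted p = 0.029). With offsets for GC content, *mt-Nd1*, *mt-Nd4*, *mt-Nd6* and *mt-Cytb* turned to differences above 0, none of them called, and the median to 0.24, while it was -0.17 without FAD_ABX_1151 and FAD_ABX_1482, -0.14 with library size alone, -0.12 with voomWithQualityWeights and -0.025 with gene length offsets.

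**Figure D3:**
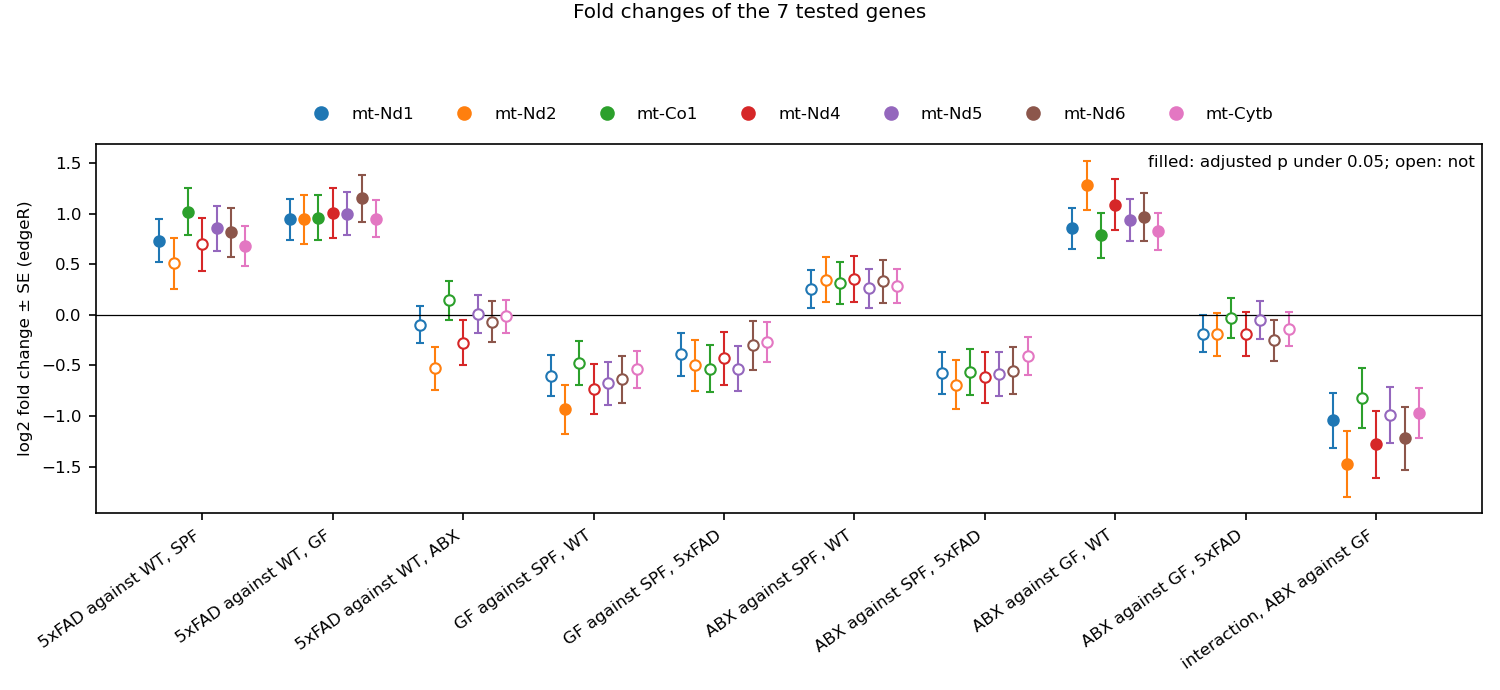
Log2 fold change with its SE (vertical axis, edgeR) of the 7 counted genes in 9 comparisons of groups and in the ABX and GF difference of the genotype effect (interaction). Filled symbols have an adjusted p under 0.05. All 7 are filled for 5xFAD against WT in GF mice and for ABX against GF in WT mice, and none for 5xFAD against WT in ABX mice.

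The genotype effect was then compared between conditions. It was smaller under ABX than under GF conditions in all 7 genes, with differences of -0.82 to -1.47 on the log2 scale, and 5 genes passed the test of this difference: *mt-Nd2* (-1.47 ± 0.32, adjusted p = 0.0206), *mt-Nd6* (-1.22 ± 0.31, 0.0417), *mt-Cytb* (-0.97 ± 0.25, 0.0419), *mt-Nd1* (-1.04 ± 0.27, 0.0452) and *mt-Nd4* (-1.28 ± 0.33, 0.0452). *mt-Nd5* (-0.99 ± 0.28, 0.0620) and *mt-Co1* (-0.82 ± 0.29, 0.149) did not. The test called 0.843 percent of all genes lower. The adjusted p-values lie near the threshold, and removal of 1 mouse changed the count to between 0 and 6. It was 0 without WT_GF_229 or WT_ABX_911, and 1 without WT_SPF_926, WT_GF_199, WT_GF_231, WT_ABX_909, WT_ABX_910, FAD_SPF_1146, FAD_GF_181, FAD_GF_184, FAD_GF_185 or FAD_ABX_1452. It was 2 without FAD_SPF_1148, FAD_GF_182 or FAD_ABX_1453, and 3 without WT_SPF_928, WT_SPF_936 or WT_ABX_923. It was also 0 in a fit of these 4 groups alone, 1 with library size as the only scaling, 2 with offsets for gene length or GC content, and 6 with DESeq2 or voomWithQualityWeights. Over all genes, in either direction, these settings called 67, 278, 217, 223, 576 and 281, against 269 in the main fit. With GC content offsets the median of the 7 genes was -0.87, in place of -1.04. For GF against SPF the genotype effects differed by a median of 0.27, or 0.092 with gene length offsets and 0.35 with GC content offsets, and no member had an unadjusted p under 0.05 (8.52 percent of all genes had one), while for ABX against SPF they differed by a median of -0.88, or -0.59 with GC content offsets, with all 7 at an unadjusted p under 0.05 (6.75 percent of all genes) and an adjusted p of 0.704 for each. edgeR, DESeq2 and voomWithQualityWeights called no member in either comparison, and edgeR called 0 percent of all genes in each.

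Next, the conditions were compared within WT mice. All 7 genes were higher in ABX than in GF WT mice, and in all 7 the groups were separate, against 4.68 percent of all genes. *mt-Nd2* had at least 96.7 CPM in ABX WT mice and at most 71.1 CPM in GF WT mice, and rose by 1.28 ± 0.25 on the log2 scale (adjusted p = 0.00324), or 2.43-fold. *mt-Nd4* had 145, 161, 216, 145 and 98.9 CPM in ABX WT against 63.5, 66.4, 85.3 and 72.1 CPM in GF WT mice, and rose by 1.09 ± 0.25 (adjusted p = 0.00927). The smallest change was that of *mt-Co1*, with 0.79 ± 0.22 (adjusted p = 0.0302). The median was 0.94 for the 7 genes and 0.01 for all genes, and the test called 2.4 percent of all genes higher. Without WT_GF_229, 4 of the 7 genes were called. With GC content offsets only *mt-Nd2* was called, and the median fell to 0.48. Both facility and numbering style differ between these groups. Malat1 and the markers of border-associated macrophages also separated them. Malat1 had 1327 to 2505 CPM of the library total in ABX WT and 886 to 1303 CPM in GF WT mice and was called higher (0.75 ± 0.21, adjusted p = 0.0330), and the 7 macrophage markers summed to 3.803 to 5.904 CPM in ABX WT and 10.7 to 43.9 CPM in GF WT mice. Oligodendrocyte markers summed to 163 to 167 CPM in ABX WT and 174 to 189 CPM in GF WT mice. Their part in these differences was not tested.

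GF WT mice were also lower than SPF WT mice, by a median of -0.64, but only *mt-Nd2* was called (-0.93 ± 0.24, adjusted p = 0.0434), where the test called 0.752 percent of all genes lower. All 7 genes had an unadjusted p under 0.05, as did 16.6 percent of all genes, and in 5 of them (*mt-Nd1*, *mt-Nd2*, *mt-Nd4*, *mt-Nd5* and *mt-Nd6*) all GF WT mice lay below all SPF WT mice, against 5.16 percent of all genes. *mt-Nd5*, for instance, had 101, 89.4, 116 and 113 CPM in GF WT and 202, 139.9, 183, 150.1 and 162 CPM in SPF WT mice. The count was 2 with DESeq2, 4 with voomWithQualityWeights and 7 in a fit of the GF WT and SPF WT mice alone. Over all genes, in either direction, these called 707, 1631 and 1286, against 248 in the main fit. Border-associated macrophage markers were higher in GF WT (10.7 to 43.9 CPM) than in SPF WT mice (3.48 to 8.15 CPM), and their part was not tested. The count of called members was 3 without FAD_ABX_1460, 0 with GC content offsets, which brought the median to -0.30, and 0 without any 1 of 11 mice (WT_SPF_912, WT_SPF_926, WT_SPF_928, WT_SPF_936, WT_GF_199, WT_GF_229, WT_GF_231, WT_ABX_909, WT_ABX_910, FAD_SPF_1146 and FAD_SPF_1148). ABX against SPF in WT mice, within 1 numbering style, gave no call and no unadjusted p under 0.05 (4.49 percent of all genes had one), with differences of 0.26 to 0.36 and a median of 0.32, or 0.20 with GC content offsets, and edgeR called 0 percent of all genes.

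In 5xFAD mice no member was called between conditions by edgeR, DESeq2 or voomWithQualityWeights. GF 5xFAD mice differed from SPF 5xFAD mice by a median of -0.43 on the log2 scale, with 2 genes at an unadjusted p under 0.05 (26.8 percent of all genes), while 12.8 percent of all genes were called. *mt-Nd5* was the only gene whose groups did not overlap, with 153 to 259.5 CPM in GF and 260.1 to 386 CPM in SPF mice, against 9.19 percent of all genes that were lower without overlap. It was called lower with gene length offsets or without FAD_ABX_1460 (adjusted p = 0.027). With GC content offsets the median of the 7 genes was 0.00, and *mt-Nd1*, *mt-Nd4*, *mt-Nd6* and *mt-Cytb* turned above 0. Besides the neutrophil markers, astrocyte markers (154.8 to 189 CPM in GF, 223 to 239 CPM in SPF mice), endothelial markers (8.42 to 29.4 and 30.5 to 41.2 CPM) and immediate early genes (1307 to 1505 and 989.6 to 1101 CPM) separated these groups. So did the share of reads on the 50 most abundant genes (26.5 to 28.6 and 23.6 to 25.8 percent), the TMM factor (0.918 to 0.954 and 0.979 to 1.007) and the number of genes with reads (17381 to 18284 and 18547 to 19860). The part of these was not tested. ABX 5xFAD mice differed from SPF 5xFAD mice by a median of -0.57, or -0.44 with GC content offsets, with an unadjusted p under 0.05 in all 7 genes and in 7.09 percent of all genes, adjusted p-values of 0.635 to 0.681, and edgeR called 0 percent of all genes. *mt-Nd2* was lower without overlap, against 1.26 percent of all genes, and without FAD_ABX_1151, the mouse that shares the numbering style and neutrophil markers of the SPF 5xFAD mice, 4 of the 7 genes were, against 4.04 percent of all genes. Border-associated macrophage markers were higher in ABX 5xFAD (33.99 to 253 CPM) than in SPF 5xFAD mice (16.1 to 29.2 CPM), and their part was not tested. ABX and GF 5xFAD mice differed by a median of -0.18, or -0.43 with GC content offsets, -0.088 with library size alone and -0.063 with gene length offsets, with no unadjusted p under 0.05 among the members and 25.5 percent of all genes with one, while 10.6 percent of all genes were called, and no member was separate (1.03 percent of all genes were higher and 1.79 percent lower without overlap). With GC content offsets *mt-Nd6* was called lower (-0.56, adjusted p = 0.0499). Astrocyte markers were higher in ABX (212.4 to 302 CPM) than in GF 5xFAD mice (154.8 to 189 CPM), and their part was not tested.

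The other genes of the mitochondrial chromosome were read beside the members. The 2 ribosomal RNA genes of the organelle were counted in all libraries. *mt-Rnr2*, the large ribosomal RNA, had 200.1 ± 14.5 CPM (SD, n = 4) in GF WT and 535.9 ± 140 CPM (SD, n = 5) in GF 5xFAD mice. It rose by 1.42 ± 0.28 (adjusted p = 0.000429), a larger estimate than for any of the 7 protein genes, and was also higher in ABX than in GF WT mice, by 1.52 ± 0.28 (adjusted p = 0.00257). The difference of the genotype effect between ABX and GF was -1.996 ± 0.363 (adjusted p = 0.00685). In SPF mice it did not pass (0.58 ± 0.28, adjusted p = 0.356). Per read on the members, *mt-Rnr2* had 0.297 ± 0.0256 reads (SD, n = 5) in SPF WT, 0.294 ± 0.0655 (n = 5) in ABX WT, 0.264 ± 0.0327 (n = 5) in GF 5xFAD, 0.259 ± 0.036 (n = 3) in SPF 5xFAD, 0.210 ± 0.0204 (n = 6) in ABX 5xFAD and 0.197 ± 0.0169 (n = 4) in GF WT mice. All 4 GF WT mice (0.179 to 0.212) lay below all 5 SPF WT mice (0.264 to 0.333) in this ratio, which was not tested. Of the 22 tRNA genes, which mark the cutting sites of the polycistronic RNA, 8 had enough reads to be tested, and *mt-Tq* (1.86 ± 0.44, adjusted p = 0.00351) and *mt-Tp* (1.72 ± 0.49, 0.0160) were higher in GF 5xFAD than in GF WT mice.

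*mt-Nd3*, a small subunit of complex I outside the 10 genes, gave the sharpest contrast between libraries, although on few reads. It had 9, 3, 13, 10 and 9 reads in the 5 GF 5xFAD and 6, 3, 7 and 5 reads in the 4 GF WT mice, and 0 reads in all 19 SPF and ABX mice. *Gm28438*, its copy on chromosome 1, had 0 reads in all 9 GF mice and 7 to 37 reads in each of the other 19. A count of 0 would allow up to 0.00791 CPM of *mt-Nd3* over the 19 libraries and up to 0.0161 CPM of *Gm28438* over the 9, by counting error only. Over 345 aligned bases the 2 sequences differ at a single base, T3C, with positions counted from 1 at the first base of *mt-Nd3*, which is position 9461 of the mitochondrial chromosome. Their first 60 bases (chrM:9459-9518, plus strand, and chr1:24613060-24613119, minus strand) are shown because this base, in capitals, is the one that tells the aligned stretches apart. Of the 299 windows of *mt-Nd3*, 293 recurred in the copy, and the other 6 either cover this base or run past the end of the annotated copy.

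mt-Nd3 start: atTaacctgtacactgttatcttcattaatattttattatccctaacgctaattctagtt
Gm28438 start: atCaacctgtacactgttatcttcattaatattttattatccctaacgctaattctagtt

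The split follows germ-free housing, and with it the facility the mice came from, in 28 of 28 libraries, FAD_GF_201 included. It does not follow genotype or numbering style, since the 5 ABX 5xFAD mice of the third style had reads on *Gm28438*. The deposited counts hold no read sequences, so the base carried by the reads was not seen. *mt-Tg*, the tRNA gene just before *mt-Nd3*, had reads in 4 of 9 GF libraries and in 0 of the other 19. *mt-Tr*, the tRNA gene just after *mt-Nd3*, had reads in 7 of 9 GF libraries and in 1 of the other 19.

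**Figure D4:**
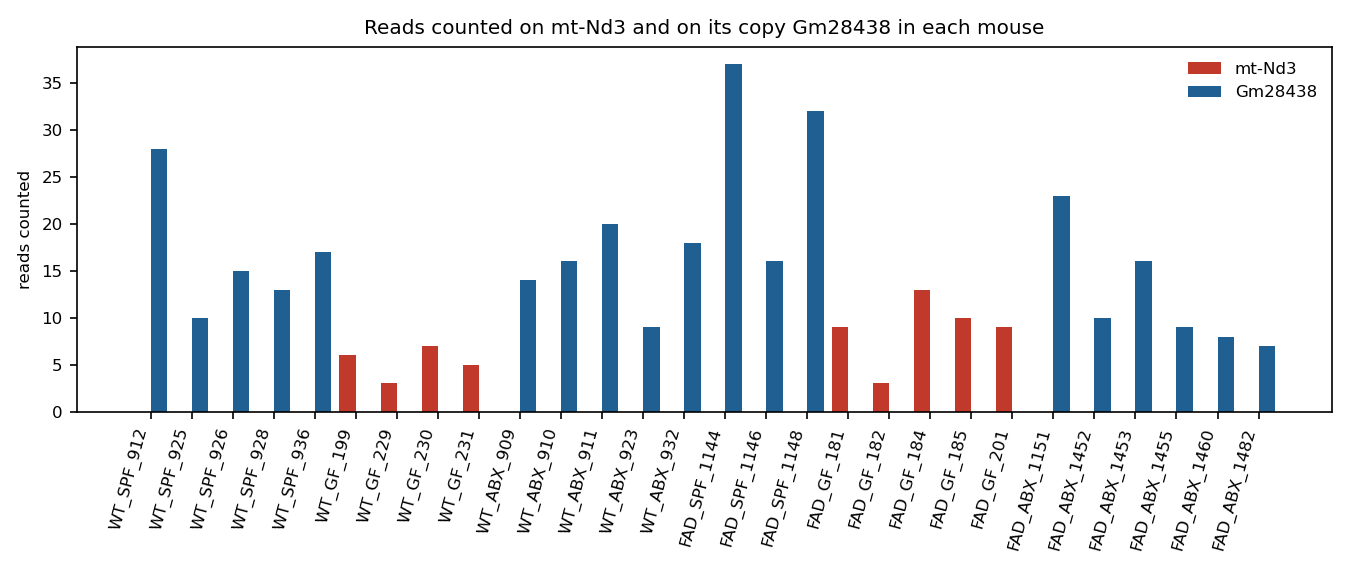
Reads counted on *mt-Nd3* (red) and on its chromosome 1 copy *Gm28438* (blue) in each of the 28 mice, ordered by group. The 9 GF mice have 3 to 13 reads on *mt-Nd3* and none on the copy, and the other 19 mice have 7 to 37 reads on the copy and none on *mt-Nd3*.

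Nuclear genes for the same complexes were compared with the members through fixed lists, 75 subunit genes in all, each of which passed the count filter. Under GF conditions both sets were higher in 5xFAD mice: 55 of the 75 nuclear genes were called higher and 0 lower, with a median of 0.59. *Ndufa1*, an accessory subunit of complex I, had 84.6 ± 23.9 CPM (SD, n = 5) in GF 5xFAD and 20.4 ± 2.94 CPM (SD, n = 4) in GF WT mice and rose by 2.05 ± 0.20 (adjusted p = 7.9e-09). *Cox4i1*, a regulatory subunit of cytochrome c oxidase, rose by 1.13 ± 0.14 (adjusted p = 1.1e-06), *Uqcr10* of complex III by 1.15 ± 0.17 and *Atp5j* of ATP synthase by 0.79 ± 0.13. By complex, 26 of 36 nuclear genes were called higher for complex I, 3 of 4 for complex II, 5 of 9 for complex III, 10 of 11 for complex IV and 11 of 15 for ATP synthase.

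In some of the other comparisons the 2 sets had medians of opposite sign or calls in one set alone. GF against SPF 5xFAD mice had 42 of 75 nuclear genes called higher (6.97 percent of all genes), with a median of 0.48, while the median of the 7 mitochondrial genes was -0.43 and none was called. *Cox4i1*, for example, had 278 to 407 CPM in GF and 192 to 253 CPM in SPF 5xFAD mice and rose by 0.78 ± 0.16 (adjusted p = 0.00293), where *mt-Co1*, its partner in the same complex, had 213 to 354 and 349 to 588 CPM and a difference of -0.53 ± 0.23 (adjusted p = 0.135). ABX against GF 5xFAD mice had 55 of 75 nuclear genes called lower (6.07 percent of all genes), with a median of -0.46, and none of the 7 mitochondrial genes. Between ABX and GF WT mice all 7 mitochondrial genes were called higher, but 0 of 75 nuclear genes were called higher and 1 lower, with a median of 0.08. Under SPF conditions, 5 of 7 mitochondrial and 3 of 75 nuclear genes were called higher in 5xFAD mice, the latter close to the 3.73 percent of all genes. Under ABX 0 of 7 and 8 of 75 were, beside 9.45 percent of all genes. The difference of the genotype effect between ABX and GF was below 0 in both sets, with a median of -1.04 and 5 of 7 mitochondrial genes called lower, and a median of -0.54 and 9 of 75 nuclear genes. Between ABX and SPF WT mice no gene of either set was called. No test of the difference between the sets was made, and the comparisons share groups of mice. With GC content offsets, the nuclear counts were 56 genes higher in GF 5xFAD against GF WT mice, 40 higher in GF against SPF 5xFAD and 54 lower in ABX against GF 5xFAD mice, while under ABX 4 genes were higher and 1 lower in 5xFAD mice. Other settings moved these counts by over 1.5 times. With library size alone, 33 nuclear genes were lower in ABX against GF 5xFAD mice, 2 were lower in 5xFAD mice under ABX and 5 passed the test of the difference of genotype effects, as did 5 with gene length offsets. With voomWithQualityWeights, 65 were higher in GF against SPF 5xFAD mice, 7 in GF against SPF WT mice and 9 in 5xFAD mice under SPF conditions, 3 were lower in ABX against GF WT mice and 4 passed for GF against SPF genotype effects. Of the 15298 genes tested, voomWithQualityWeights called 3872, 1631, 2154, 2025 and 116 in these comparisons, in that order and in either direction. Library size alone called 1727, 2471 and 278 in its comparisons, and gene length offsets 217. The mitochondrial median under GC content offsets for GF against SPF 5xFAD mice was 0.0019, with 4 genes above 0, so that the opposite sign was lost, and 1 of the 7 genes in place of 7 was called for ABX against GF WT mice.

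**Figure D5:**
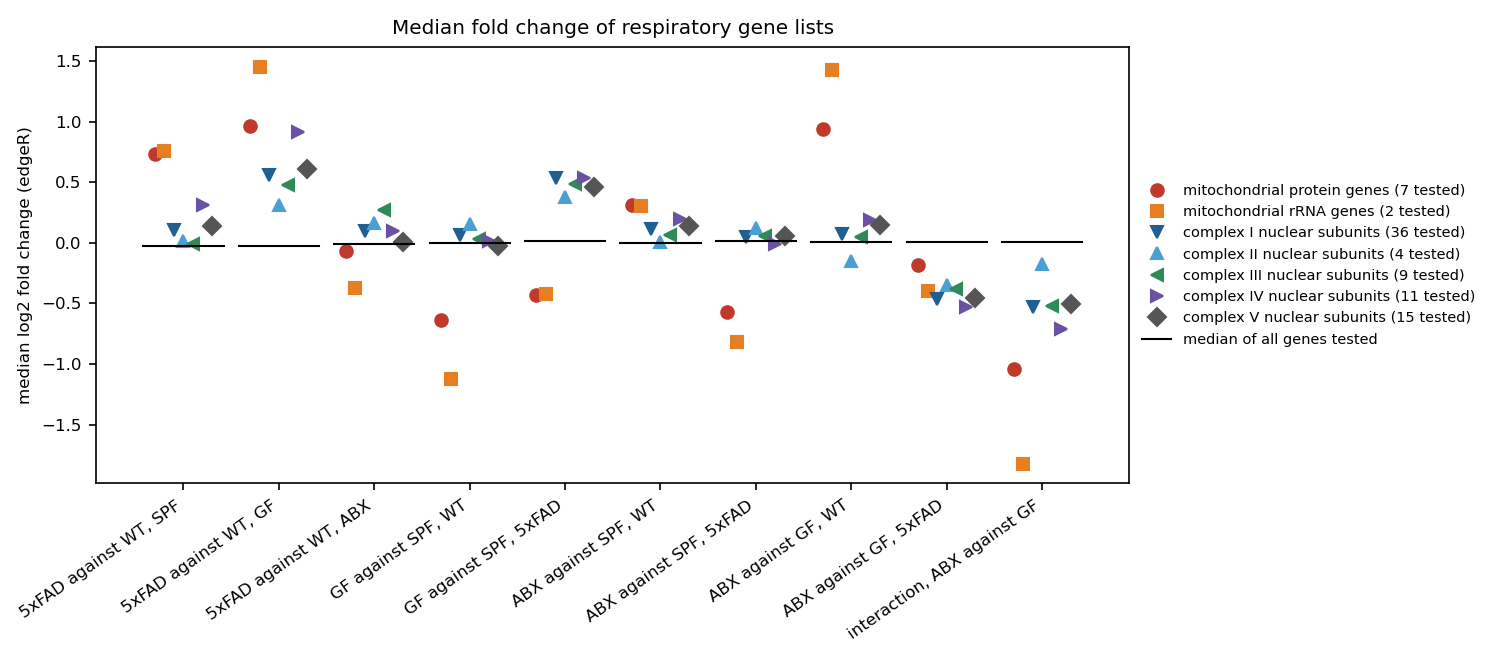
Median log2 fold change (vertical axis, edgeR) of the 7 counted mitochondrial protein genes, the 2 mitochondrial rRNA genes and the nuclear subunit genes of complexes I to V in 9 comparisons of groups and in the ABX and GF difference of the genotype effect; black lines are the medians of all genes tested. Mitochondrial and nuclear lists lie on the same side of 0 for 5xFAD against WT in GF mice and on opposite sides for GF against SPF in 5xFAD mice, where GC content offsets brought the mitochondrial median to 0.0019.

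Genes that act on the mitochondrial chromosome or its RNA were read from fixed lists, beside the 9.43 percent of all genes called higher and 6.2 percent called lower in GF 5xFAD against GF WT mice. For transcription and replication of mitochondrial DNA, 16 genes were tested, with 0 higher and 2 lower in GF 5xFAD against GF WT mice and a median of -0.20. One of them was *Mterf4*, which works in assembly of the mitochondrial ribosome (-0.64, adjusted p = 0.0045). For processing and stability of mitochondrial RNA, 3 of 24 tested genes were called higher and 0 lower in the same comparison, among them *Elac2*, the enzyme that cuts the 3′ ends of tRNAs (0.53, adjusted p = 0.04), and *Hsd17b10*, a subunit of the enzyme that cuts their 5′ ends (0.62, adjusted p = 0.012). Mitochondrial translation factors had 1 of 11 higher and 1 lower, and assembly factors of the respiratory complexes 2 of 28 higher and 0 lower. None of 6 tested regulators of mitochondrial biogenesis was called. Of 13 tested genes of the mitochondrial stress response 1 was called higher, *Psat1*, an enzyme of serine synthesis, which was also higher in 5xFAD mice under SPF conditions and ABX (2.48, 2.72 and 2.40 under SPF, GF and ABX). Immediate early genes, which respond to cell isolation, had 4 of 17 higher in this comparison, and 1 higher and 2 lower under SPF conditions. They had 3 higher and 1 lower under ABX, and 7 of 17 higher, with all 17 above 0 and a median of 0.66, in GF against SPF 5xFAD mice. Their part in the values of the members and nuclear subunits was not tested.

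The genes outside the mitochondrial chromosome whose log2 CPM was most like the mean of the members over the 28 mice were mostly ribosomal protein genes. *Rpl39* had Pearson's r = 0.868, *Rps24* 0.839, *Rpl37rt* 0.833 and *Rps21* 0.823, while *Ly86*, which encodes a secreted partner of an innate immune receptor, had 0.804. With CPM on library totals the same 5 genes came first, at 0.854, 0.830, 0.819, 0.807 and 0.803. The points share libraries and scaling, many ribosomal protein genes have processed pseudogenes, and the values are a description. *Rpl39*, a protein of the large cytosolic ribosomal subunit, had 6.47 ± 1.81 CPM (SD, n = 4) in GF WT and 19.8 ± 3.82 CPM (SD, n = 5) in GF 5xFAD mice. *Ly86*, at 797 ± 194 CPM (SD, n = 4) in GF WT and 1290.2 ± 292 CPM (SD, n = 5) in GF 5xFAD mice, overlapped between these groups, while *Rpl39* did not.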

How the data were processed

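RNA was sequenced as 50-base single reads from sorted hippocampal microglia of 28 mice, from cDNA primed on poly(A) tails and libraries that do not keep strand. The authors aligned reads with STAR to GRCm38 and counted them per gene with featureCounts on GENCODE M21, and the deposited table holds raw counts, with 1 column per mouse. The submitters' processing notes name STAR 2.7.2, featureCounts 1.6.2, CASAVA 1.8.2, FastQC 0.11.8, edgeR 3.26.7 and limma 3.40.6. They also name GRCh38.p12, a human build, while the coordinates in the table are those of mouse GENCODE M21. How reads with several equally good places were treated bears on genes with nuclear copies and was not tested.

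Each mouse was assigned to its group by its title. Libraries held 14441610 to 29977395 reads, and no pair of libraries was identical. Counts were tested with edgeR 4.0.16 (quasi-likelihood; R 4.3.3) after filterByExpr (minimum count 10, minimum total 15), TMM scaling and 1 term per group, in 12 contrasts. Benjamini-Hochberg adjustment ran over the 15298 genes tested, at a threshold of 0.05. SE was the log2 fold change divided by the square root of F, CPM of genes are scaled by TMM, and sums of markers and Malat1 are CPM of the library total. The edgeR p-values weigh a difference between groups against the spread between mice, estimated in 1 model of all groups. Exact permutation tests (two-sided, on log2 CPM) covered 7 members in 9 comparisons, 63 tests, since 3 members had 0 or 1 read in all libraries. Intervals for a count of 0 use a floor of 3 counts. Alternatives were DESeq2 1.42.0, limma 3.58.1 voomWithQualityWeights (the weighting that the study's methods name), other scalings and filters, gene length offsets, the groups compared alone, a threshold of 0.01, 26 mice (without FAD_ABX_1151 and FAD_ABX_1482) and each mouse left out. Offsets for GC content, and counts of members whose groups do not overlap without FAD_GF_201 or FAD_ABX_1151, were added after the data were seen, with GC known for 96.7 percent of the genes tested. The tests were run on simulated data first.

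The text names the 10 members, other mitochondrial genes, up to 4 genes per fixed list with the smallest adjusted p in 5xFAD against WT under GF housing or GF against SPF in 5xFAD mice, the 5 genes most like the members, and annotated nuclear copies. The members and lists were chosen with earlier results of these data known. Sequences were read from the GENCODE M21 transcripts of GRCm38.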

Additional observations from a re-analysis of the deposited data

Results flagged for a closer look

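In 4 of 35 combinations of a gene and a group of 4 to 6 mice, 1 mouse lay apart from the others by Dixon's criterion, where chance gives about 1 in 20 independent groups. The 7 genes move together over the same mice, and 2 of the 4 cases are 1 mouse, so the count is a description. *mt-Nd1* and *mt-Nd2* were high in mouse WT_SPF_912, at 452 and 147 CPM, against 298 to 332 and 80.0 to 97.5 CPM in the other 4 SPF WT mice. *mt-Nd6* was low in FAD_ABX_1460, at 35.2 CPM against 79.4 to 104 CPM in the other 5 ABX 5xFAD mice, and *mt-Co1* in WT_ABX_932, at 178 CPM against 272 to 293 CPM in the other 4 ABX WT mice. WT_SPF_912 had the highest Malat1 of its group, at 1886 CPM of the library total, and FAD_ABX_1460 and WT_ABX_932 the lowest of theirs, at 436 and 1327 CPM.

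The difference between 5xFAD and WT mice was smaller under ABX than under GF conditions by the test of the difference itself (edgeR quasi-likelihood test, log2 scale) in 5 genes: *mt-Nd2* at -1.47, *mt-Nd4* at -1.28, *mt-Nd6* at -1.22, *mt-Nd1* at -1.04 and *mt-Cytb* at -0.97. The ABX 5xFAD mice span 2 numbering styles, and the ABX WT mice have another than the GF mice, so style and the difference cannot be told apart.

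*mt-Nd3* and its copy *Gm28438* lie outside the comparisons of members. *mt-Nd3* had up to 13 reads in GF mice and 0 in all others, and *Gm28438* up to 37 reads in SPF and ABX mice and 0 in GF mice.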

How the results depend on the processing

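Of 144 counts of called members under other settings, 128 stayed within 1.5 times the main count. Under SPF conditions, 2 genes were called in 5xFAD against WT mice with library size alone and 1 at the threshold of 0.01, against 5. For GF against SPF WT mice the count of 1 became 2 with DESeq2, 4 with voomWithQualityWeights, 7 with only the groups compared, 0 at 0.01 and 0 with GC content offsets. Over all genes, in either direction, these called 707, 1631, 1286, 31 and 129, against 248 in the main fit. For GF against SPF 5xFAD mice 1 gene was called with gene length offsets. For ABX against GF mice, 7 became 4 at 0.01 and 1 with GC content offsets in WT mice, and 0 became 1 with GC content offsets in 5xFAD mice. The difference of genotype effects between ABX and GF went from 5 genes to 1 with library size alone, 2 with gene length offsets, 2 with GC content offsets, 0 with only the groups compared and 0 at 0.01. The cause of these shifts was not tested. For 5xFAD against WT in GF mice, 7 genes were called under each setting.

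With 1 mouse left out, the count ran from 0 to 6 for 5xFAD against WT in SPF mice, 7 to 7 in GF and 0 to 1 in ABX mice, 0 to 3 for GF against SPF in WT and 0 to 1 in 5xFAD mice, 4 to 7 for ABX against GF in WT mice and 0 to 6 for the difference of genotype effects between ABX and GF, and was 0 throughout elsewhere.

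None of the values that changed sign (log2 fold changes) was called by the edgeR test on all mice. For 5xFAD against WT in ABX mice, GC content offsets gave 0.20 for *mt-Nd1*, 0.10 for *mt-Nd4*, 0.35 for *mt-Nd6* and 0.24 for *mt-Cytb*. *mt-Nd5* was -0.058 with library size alone, -0.050 with voomWithQualityWeights and -0.053 with 26 mice, *mt-Co1* -0.0071 with 26 mice and *mt-Cytb* 0.00071 with no filter. With 1 mouse left out they ran from -0.20 to 0.048 (*mt-Nd1*), -0.091 to 0.17 (*mt-Nd5*), -0.14 to 0.091 (*mt-Nd6*), -0.012 to 0.28 (*mt-Co1*) and -0.10 to 0.11 (*mt-Cytb*), where FAD_ABX_1151 set each lower and FAD_ABX_1460 each upper end. For GF against SPF 5xFAD mice, GC content offsets gave 0.0019 (*mt-Nd1*), 0.029 (*mt-Nd4*), 0.21 (*mt-Nd6*) and 0.075 (*mt-Cytb*). For ABX against GF 5xFAD mice, *mt-Nd5* was 0.046 with library size alone and 0.052 with gene length offsets, and *mt-Co1* 0.066, 0.0037, 0.10 and 0.0068 with library size alone, no filter, gene length offsets and only the groups compared. With 1 mouse left out they ran from -0.14 to 0.11 and from -0.17 to 0.11. The GF and SPF difference of genotype effects in *mt-Co1* was 0.10 with voomWithQualityWeights and 0.021 with GC content offsets, and ran from -0.20 to 0.24 with 1 mouse left out.

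No paired analysis was possible because the numbers in the titles are animal numbers, which no groups share. The 3 SPF 5xFAD mice limit each comparison that uses them, and *mt-Co2*, *mt-Co3* and *mt-Atp6* had too few reads for any comparison.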
